A study of Drosophila melanogaster with 2 samples.

Results

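Weak promoter peaks are places near the start of a protein-coding gene where the chromatin-bound protein Hinfp gave a peak too low in rank to enter the deposited thresholded list. There were 4072 of them among the 30000 peaks of the pooled list, which was made from the reads of replicates 2 and 4 combined. They were chosen by 2 criteria, of which the first is a measured value. The peak had no identical row in the IDR list, which keeps peaks whose ranks repeat between replicates by the irreproducible discovery rate (IDR), and its summit lay within 250 bp of a transcription start site (TSS) of a protein-coding gene. The IDR list consisted of the 7915 strongest pooled peaks, so every weak peak ranked lower than every IDR peak by construction. Of the 22085 pooled peaks below the IDR list, 18.4% met the TSS criterion, against 46.1% of the IDR peaks (3652 peaks, called IDR promoter peaks here).

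The data are chromatin immunoprecipitation with sequencing (ChIP-seq) of whole *Drosophila melanogaster* embryos aged 0 to 24 hours, males and females together. The embryos came from 1 transgenic line that carries CG17829, the gene now named Hinfp, with GFP (green fluorescent protein) joined to the C-terminal end, and the fusion protein was pulled down with an anti-GFP antibody. The labels give 1 group, with biological replicates 2 and 4, and no second condition. Every cell type and embryonic stage is averaged in such samples, and what drives the tagged gene was not among the details used here. The lists hold no read depth, so the counting error of a single peak is unknown.

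Hinfp is the fly relative of human HINFP, a zinc finger protein known for activating histone H4 genes as cells enter S phase. Fly promoters fall into broad classes. Many housekeeping genes carry the DNA replication-related element (DRE), bound by DREF, or Motif 1, bound by M1BP, while developmental genes more often carry an initiator, a TATA box or runs of GA bound by GAGA factor. The insulator protein BEAF-32 binds the letters CGATA, which the DRE contains.

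The sequences below are windows that reach 50 bases to each side of the summit, from the dm6 genome as held by RefSeq. They are shown because they carry the letters whose share among weak promoter peaks differed from that of other promoters. Each pair holds the best-ranked examples outside IDR peaks among the windows considered, read on the strand of the gene with the nearest TSS. Windows already shown for another k-mer were not considered. Part of the genome was also left out of this choice, so better-ranked windows may exist there. In the first group the capitals mark GAGAGAG (called GAGA), TATCGATA (DRE) or GGTCACAC (Motif 1), or the reverse complement. Other listed letters stay in lower case.
aus, GAGA, chr3R:21349545-21349645 (- strand): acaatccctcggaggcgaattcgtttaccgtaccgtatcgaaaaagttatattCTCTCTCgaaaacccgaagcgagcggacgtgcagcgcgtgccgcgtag
Fmr1, GAGA, chr3R:10109379-10109479 (- strand): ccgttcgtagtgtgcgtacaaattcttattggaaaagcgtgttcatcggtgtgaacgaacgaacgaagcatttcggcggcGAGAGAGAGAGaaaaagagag
CG2124, DRE, chrX:10596008-10596108 (+ strand): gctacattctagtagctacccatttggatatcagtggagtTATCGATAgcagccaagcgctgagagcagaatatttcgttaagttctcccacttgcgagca
sesB, DRE, chrX:10786961-10787061 (- strand): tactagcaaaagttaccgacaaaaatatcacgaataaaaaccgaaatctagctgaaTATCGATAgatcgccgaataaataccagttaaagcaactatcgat
cdm, Motif 1, chr3R:18183428-18183528 (- strand): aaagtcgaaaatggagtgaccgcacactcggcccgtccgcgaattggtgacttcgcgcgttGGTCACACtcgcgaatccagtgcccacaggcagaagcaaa
Ask1, Motif 1, chr3R:19879661-19879761 (+ strand): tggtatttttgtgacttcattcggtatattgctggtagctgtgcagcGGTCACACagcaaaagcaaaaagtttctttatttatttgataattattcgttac

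Fmr1 encodes the fly relative of the fragile X RNA-binding protein, sesB the mitochondrial ADP/ATP carrier, cdm an importin and Ask1 a stress-activated MAP kinase kinase kinase. These 6 peaks had pooled ranks from 7921 (aus) to 7999 (Ask1). The Fmr1 window held 3 overlapping copies of GAGAGAG. The aus window also held GCGGACGT, letters of the site described for human HINFP, in lower case. In the second group the capitals mark CACACACA (CA repeat), CAGCTG (E-box) or CGATA (BEAF core), or the reverse complement, and the last pair held none of the 16 k-mers searched.
sd, CA repeat, chrX:15811993-15812093 (+ strand): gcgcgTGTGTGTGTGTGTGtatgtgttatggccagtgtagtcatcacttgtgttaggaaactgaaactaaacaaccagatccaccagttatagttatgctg
HDAC6, CA repeat, chrX:15333366-15333466 (+ strand): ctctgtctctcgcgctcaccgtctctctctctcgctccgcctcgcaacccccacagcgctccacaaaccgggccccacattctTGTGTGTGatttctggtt
CG17652, E-box, chr2L:1732305-1732405 (- strand): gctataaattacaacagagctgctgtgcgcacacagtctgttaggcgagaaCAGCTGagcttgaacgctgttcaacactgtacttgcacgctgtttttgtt
CG31126, E-box, chr3R:24659542-24659642 (+ strand): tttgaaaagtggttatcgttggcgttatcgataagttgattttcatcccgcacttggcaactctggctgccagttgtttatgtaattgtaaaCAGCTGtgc
CG46307, BEAF core, chr2L:21104480-21104580 (+ strand): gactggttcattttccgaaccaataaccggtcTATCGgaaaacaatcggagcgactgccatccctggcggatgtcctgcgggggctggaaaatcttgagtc
Prx2, BEAF core, chrX:13329676-13329776 (+ strand): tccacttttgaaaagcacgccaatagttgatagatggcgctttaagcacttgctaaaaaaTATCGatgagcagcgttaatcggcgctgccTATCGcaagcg
CG5273, none listed, chrX:759485-759585 (+ strand): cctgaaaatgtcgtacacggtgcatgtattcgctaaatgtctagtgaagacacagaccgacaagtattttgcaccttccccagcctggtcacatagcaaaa
CG5676, none listed, chr2L:10255808-10255908 (- strand): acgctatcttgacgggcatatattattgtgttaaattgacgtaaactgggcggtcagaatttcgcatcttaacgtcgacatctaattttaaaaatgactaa

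The gene sd encodes the TEAD-family factor Scalloped, the partner of Yorkie in Hippo signalling, HDAC6 a cytoplasmic deacetylase and Prx2 a peroxiredoxin. The CG31126 window held a DRE in lower case beside its E-box. Of all 4072 weak promoter windows, 58.9% held at least 1 of the 16 k-mers, against 65.4% of IDR promoter windows and 61.7% of windows at the 5818 coding promoters with no pooled summit within 1000 bp. Those promoters were taken at the first listed TSS of each gene, so such a gene may have a summit at another of its TSSs. The windows of 4037 weak promoter peaks (99.1%) consisted only of 32-base words that occur once in the genome.

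The deposited signal of the weak promoter peaks ran from 29.6 to 138 with a median of 68.7. These are the authors' values on a scale the sources do not define, and they describe ranks within this list only. Pooled ranks ran from 7919 to 29999 with a median of 14758.5. At the edge of the IDR list, CG32473 (rank 7909, signal 138.0) and mRpL40 (rank 7914, signal 138.0) were the last IDR promoter peaks, and CG5273 (rank 7919, signal 137.9) and aus (rank 7921, signal 137.9) the first weak ones. At the edge of the TSS criterion, the summits at rdgA, a diacylglycerol kinase gene, and Neurochondrin lay 250 bp away and counted, and those at Tis11, whose product binds AU-rich RNA, and bip1 lay 251 bp away and did not. The deposited q value was at the list's best value, a −log10 of 4.29, for 707 weak promoter peaks (17.4%), as it was for every IDR promoter peak. Over all weak promoter peaks the −log10 q went down to 0.356, with a median of 1.96 and a lower quartile of 0.856. The counts of genes below use weak peaks of any q.

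The share of pooled peaks at coding promoters fell with rank. It was 36.5% in ranks 7916 to 10000, 26.6% in ranks 10001 to 15000, 17.1% in ranks 15001 to 20000, 12.3% in ranks 20001 to 25000 and 10.3% in the last 5000. Nearly 1 in 4 weak promoter peaks, 990 (24.3%, 95% exact interval 23.0 to 25.7), overlapped an IDR peak, against 5.78% of the weak peaks away from coding TSSs. Their summits lay 199 to 729 bp from that IDR summit, with a median of 203 bp and quartiles of 200 and 207 bp. None lay within 100 bp of an IDR summit. Of all weak promoter peaks 96.8% had the same width, 430 bp, as had 51.0% of IDR promoter peaks. What sets the near-constant spacing of the summits was not tested. The IDR peak had a promoter summit of its own in 919 of the 990 cases (92.8%) and lay upstream of the weak summit, relative to the gene, in 800 (80.8%). These 990 are called second summits here, without evidence that they are separate sites, and are set apart in the replicate comparison. The tests and gene counts after it include them, and without them the k-mer and location tests gave the same calls for each feature that passed.

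Replicate lists were compared by overlap of at least 1 bp, and where several replicate peaks overlapped, the best-ranked was taken. Of the 4072 weak promoter peaks, 3816 overlapped a peak of replicate 2, 3677 one of replicate 4, 3461 (85.0%) one of each and 40 neither. The share for all pooled peaks below the IDR list was 67.1%. Beside an IDR peak, the summit of this best-ranked replicate peak lay nearer to the IDR summit than to the weak one for 954 of 990 peaks (96.4%) in replicate 2 and 927 of 988 (93.8%) in replicate 4. That choice favours a strong neighbour, so the count does not show that weak summits lacked a replicate peak of their own. By nearest summit, 2076 of all 4072 had summits of both replicates within 100 bp. Of these, 1622 were among the 3082 that overlapped no IDR peak, and the rest lay beside one. TfIIA-L, which encodes a subunit of general factor TFIIA, is an example: its weak peak (3R, 27253301 to 27253730, pooled rank 7941) overlapped a peak of rank 826 in replicate 2 and 643 in replicate 4, and an IDR peak of rank 715. The eIF3c peak, a translation initiation factor promoter, was among the 5 weakest of all (rank 29997, signal 29.6) yet overlapped peaks of rank 1149 and 1119, and an IDR peak of rank 1099. In both genes these replicate ranks, of the best-ranked overlapping peak, were close to the rank of the IDR neighbour and far from that of the weak peak. They do not tell whether the weak summit had a replicate peak of its own.

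Among the 3082 weak promoter peaks that overlapped no IDR peak, 2473 (80.2%, interval 78.8 to 81.6) overlapped a peak of both replicates, against 63.8% of all 20054 such peaks below the IDR list. The share depended on rank. Down to rank 15000 the promoter peaks and those away from coding TSSs had nearly the same share, 93.6% and 94.8% in ranks 10001 to 15000. In ranks 20001 to 25000 it was 59.0% (interval 54.4 to 63.5) at promoters and 46.4% (44.9 to 47.9) away from them. In ranks 25001 to 30000 it was 43.4% (38.5 to 48.4) and 24.5% (23.2 to 25.8). A stricter match, with both replicate summits within 100 bp of the pooled one, held for 1622 (52.6%) at promoters and 37.1% away from them, but the promoter peaks were also the better ranked. Within ranks the stricter share was not higher at promoters in the upper spans: it was 86.9% and 87.1% in ranks 7916 to 10000, 71.4% (68.5 to 74.2) and 75.9% (74.4 to 77.3) in ranks 10001 to 15000, and 43.5% (39.6 to 47.5) and 47.8% (46.3 to 49.4) in ranks 15001 to 20000. The shares in ranks 20001 to 25000 were 20.4% (16.8 to 24.4) and 16.8% (15.7 to 17.95), and in ranks 25001 to 30000 5.24% (3.27 to 7.89) and 3.85% (3.296 to 4.46), with overlapping intervals both times. The pooled signal contains both replicates, so these shares describe the lists and were not tested.

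**Figure D1:**
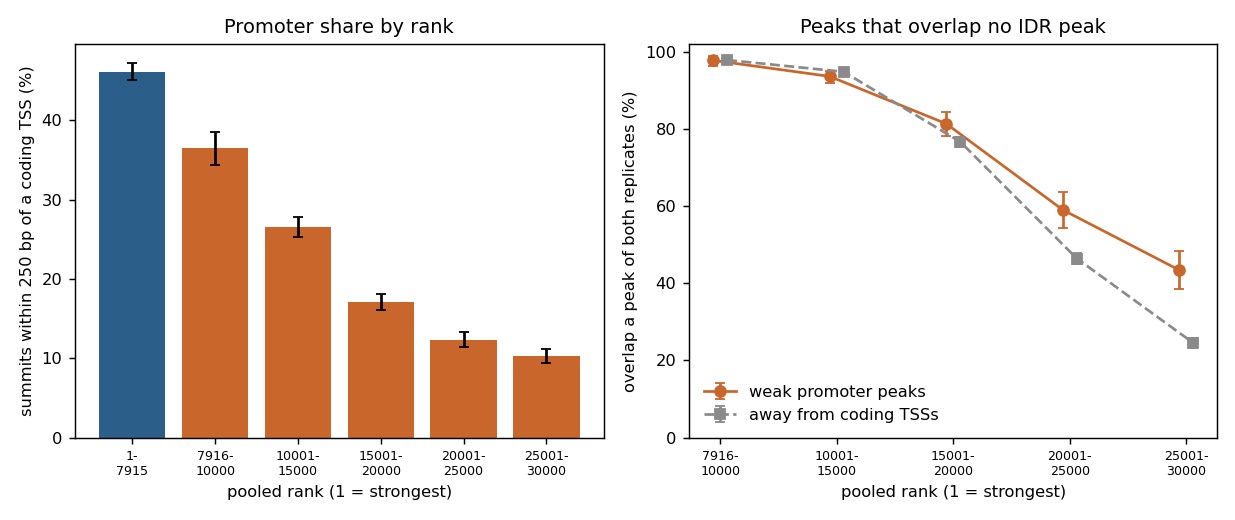
Left, share of pooled peaks whose summit lay within 250 bp of a coding TSS, by pooled rank (blue, IDR peaks; orange, below); right, for peaks that overlap no IDR peak, share that overlaps a peak of both replicate lists (orange circles, weak promoter peaks; grey squares, weak peaks away from coding TSSs). Bars are 95% exact intervals over peaks. The promoter share falls from 46.1% to 10.3%, and the classes on the right part only below about rank 15000.

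Over the 2473 weak promoter peaks with no IDR overlap and a peak in each replicate, the Spearman correlation of the replicate ranks was 0.34, and over all 3461 with a peak in each replicate 0.69. These describe peaks that share the same libraries and were selected on rank. The ranks were over 2-fold apart for 309 of them (12.5%), 191 stronger in replicate 2 and 118 in replicate 4, and none was over 8-fold apart. Only 25 of the 3082 lay within the first 7915 peaks of both replicates. Of the 5 weak promoter peaks with the largest differences towards replicate 4, 3 were free-standing. Srx, the sulfiredoxin gene (X, 17856675 to 17857104), had rank 23944 and signal 23.8 in replicate 2 and rank 6399 and signal 79.1 in replicate 4. CG31211 had ranks 29113 and 7088, and TM9SF4, a transmembrane protein gene, ranks 28420 and 7094.

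The 5 peaks with the largest differences towards replicate 2 all overlapped an IDR peak. At cact, which encodes the IκB-like inhibitor of Toll signalling, the weak peak (2L, 16325954 to 16326097) overlapped a peak of rank 405 in replicate 2 and one of rank 13851 in replicate 4. The others were nord, mRpL34, CG10286 and Pkn. Towards replicate 4, RhoGDI had ranks 22182 and 1353 and Hsc70-4, a constitutive chaperone gene, ranks 9200 and 2101, again beside an IDR peak. The overlapped IDR peak had pooled rank 395 at cact, 2256 at nord, 1422 at mRpL34 and 2391 at CG10286. It had rank 2834 at Pkn, 1629 at RhoGDI and 2128 at Hsc70-4. In replicate 2 the ranks were 2046 at nord, 1609 at mRpL34, 1922 at CG10286 and 1616 at Pkn. The better replicate rank may thus belong to the IDR neighbour, and the difference need not be one of the weak summit. For these genes it was not counted separately which of the summits the replicate peak lay nearer to.

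**Figure D2:**
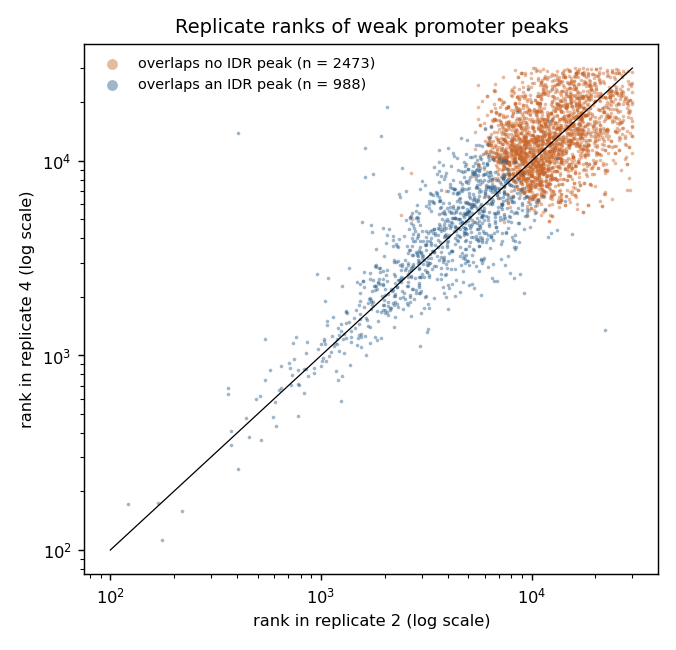
Rank of the best-ranked overlapping peak in replicate 2 (x axis, log scale) and replicate 4 (y axis, log scale) for each weak promoter peak that overlaps a peak of both lists. The line marks equal ranks. The 2473 peaks with no IDR overlap (orange) cluster at high rank numbers, and the 988 beside an IDR peak (blue) spread along the line at lower ones, with cact and RhoGDI among the points far from it.

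The 10 best-ranked peaks with no IDR overlap and a peak in both replicates lay at genes of unrelated roles. CG5273 (X, 759398 to 759605) had rank 11244 in replicate 2 and 5470 in replicate 4. The aus peak (3R, 21349380 to 21349809) had ranks 7984 and 7040, with its summit 6 bp inside the gene. CG8547, CG5676, heca, PRAS40, CG17652 with CG17646, CG14322, Fmo-1 with CG13566 and CG46307 with Nhe2 followed, down to pooled rank 7936. PRAS40 encodes a regulator of TORC1, Fmo-1 a flavin-containing monooxygenase and Nhe2 a sodium/proton exchanger. Replicate 2 gave the better rank in 5 of these 10 and replicate 4 in the other 5. At the other end, east, CG32813 and CG11357, with pooled signals of 29.6 to 29.7, had no IDR neighbour. For CG32813 there was a peak in replicate 2 only, at rank 27090.

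Summits of weak promoter peaks were placed differently from those of IDR promoter peaks. Upstream of the nearest coding TSS lay 2202 of 4072 weak summits (54.1%, interval 52.5 to 55.6) and 2963 of 3652 IDR promoter summits (81.1%, 79.8 to 82.4), an odds ratio of 0.274 (Fisher's exact test, two-sided, adjusted p = 4.41e-144). The median signed position was 12 bp upstream for weak summits, written as −12, and −65 for IDR promoter summits. Among the weak summits with no IDR overlap 58.6% lay upstream, and among the 990 second summits 40.1%. The upstream share fell steadily, from 86.9% in the 913 strongest IDR promoter peaks to 73.3% in the 913 weakest, 66.6% in ranks 7916 to 10000 and 46.0% in the last 5000. Here and below, p covers counting error over peaks, which are not replicates of a condition and of which some share a gene.

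**Figure D3:**
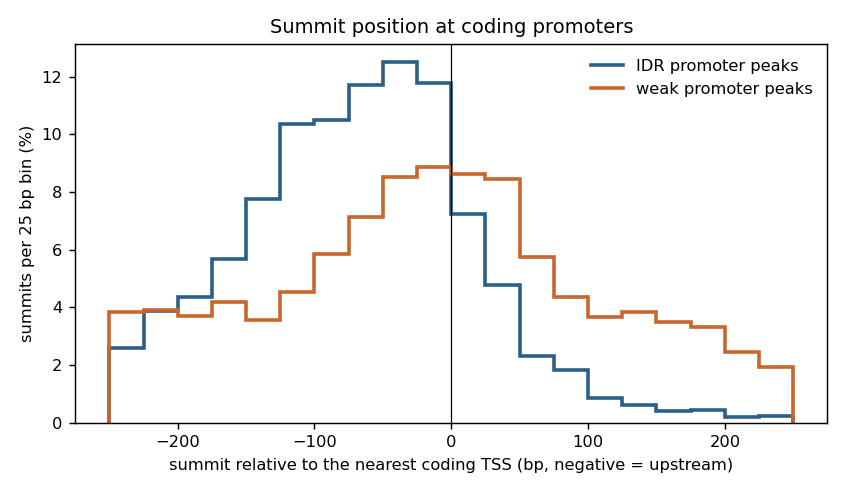
Position of the summit relative to the nearest coding TSS (x axis, bp, negative is upstream) for weak (orange) and IDR (blue) promoter peaks, as the percentage of each set's summits in 25 bp bins. The IDR summits gather upstream of the TSS, and the weak summits centre on it and extend into the gene.

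Weak summits less often had TSSs of several genes nearby, a count taken from the summit that also depends on where the summit lies. TSSs of at least 2 coding genes lay within 250 bp of 398 weak summits (9.77%, interval 8.88 to 10.7) and of 1061 IDR promoter summits (29.1%, 27.6 to 30.6), an odds ratio of 0.265 (adjusted p = 1.42e-105, Fisher's exact test). By rank the share went from 14.2% in ranks 7916 to 10000 to 6.63% in the last 5000. Weak summits were more often on the X chromosome, 922 (22.6%, 21.4 to 24.0) against 550 (15.1%, 13.9 to 16.3), an odds ratio of 1.65 (adjusted p = 1.98e-17, Fisher's exact test). The X carries 15.7% of coding genes, and 19.6% of the weak peaks away from coding TSSs lay on it. The X share rose through the IDR list too, from 11.1% in its 913 strongest promoter peaks to 19.4% in its 913 weakest, and was 21.1% to 24.7% in every weaker span of ranks.

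The k-mers, short words searched on both strands of these windows, divided the weak promoter peaks from stronger and from unbound promoters in different ways. Against IDR promoter summits, 5 of 16 were rarer at weak summits and 3 more frequent (Fisher's exact test with Benjamini-Hochberg adjustment over the 16). The DRE was held by 156 weak windows (3.83%, interval 3.26 to 4.47) and 6.98% of IDR windows, an odds ratio of 0.531 (Fisher's exact test, adjusted p = 4.59e-09). The BEAF core was at 21.9% and 30.6% (odds ratio 0.637, exact test, adjusted p = 3.70e-17) and Motif 1 at 3.49% and 5.81% (odds ratio 0.586, adjusted p = 3.86e-06). CATCNCTA, called Motif 7, was at 1.65% and 3.72% (odds ratio 0.432, exact test, adjusted p = 4.93e-08). The DRE share also went with rank among the weak peaks, from 7.37% in ranks 7916 to 10000, near that of IDR peaks, to 1.46% in ranks 20001 to 25000 and 2.14% in the last 5000. Motif 1 likewise went from 7.76% to 0.975%. Over the weak peaks down to rank 15000 alone neither differed detectably from IDR peaks (exact test, adjusted p = 0.11 for the DRE and 0.306 for Motif 1).

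More frequent at weak than at IDR promoter summits were GAGA, with 148 weak windows (3.63%, 3.08 to 4.26) against 1.97% (odds ratio 1.88, Fisher's exact test, adjusted p = 2.38e-05), and the CA repeat, with 145 (3.56%, 3.01 to 4.18) against 1.59% (odds ratio 2.29, adjusted p = 1.42e-07). TCAGTT, the initiator, was at 8.77% and 6.27% (odds ratio 1.44, exact test, adjusted p = 7.01e-05). With windows centred on the TSS the CA repeat was at 2.38% and 1.62%, with a smaller odds ratio of 1.49 (exact test, adjusted p = 0.0425). GAGA was at 2.77% and the CA repeat at 3.57% over all 22085 peaks below the IDR list, so the CA repeat was as frequent in weak peaks as a whole as at promoters. Of the 148 GAGA peaks 90.5% overlapped a peak of both replicates, and of the 145 CA repeat peaks 88.3%, where all weak promoter peaks had 85.0%. These shares include peaks beside an IDR peak, and their differences were not tested. TATAAA, the TATA box, was rarer at weak than at IDR promoter summits, 12.3% and 19.7% (odds ratio 0.573, exact test, adjusted p = 1.17e-17), but with windows centred on the nearest TSS in place of the summit the order was the other way, 9.63% and 8.41%, and missed the threshold (odds ratio 1.16, adjusted p = 0.12). That placement differs between the sets, as the histogram of summit positions shows.

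Against the 5818 coding promoters with no pooled summit, whose windows were centred on the TSS, 6 k-mers were more frequent at weak summits and 2 rarer. GAGA stood at 3.63% against 0.791% (odds ratio 4.73, adjusted p = 6.84e-23, Fisher's exact test), the DRE at 3.83% against 0.980% (odds ratio 4.03, adjusted p = 4.71e-21) and Motif 1 at 3.49% against 1.08% (odds ratio 3.301, adjusted p = 7.74e-16). The CA repeat had an odds ratio of 3.17, the E-box (CAGCTG) 1.69 and the BEAF core 1.58. The initiator, at 8.77% against 19.5%, and the TATA box, at 12.3% against 25.1%, were rarer. With both sets centred on the TSS all 8 kept their direction and passed, with odds ratios of 7.32 for the DRE, 8.11 for Motif 1, 3.22 for GAGA, 0.715 for the initiator and 0.317 for the TATA box. A match is a description of letters, not a bound site.

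For the letters described for human HINFP no difference was detected. GGACGT, the core, was in 68 weak windows (1.67%, interval 1.30 to 2.11), 1.64% of IDR windows and 1.80% of unbound promoters. The longer GCGGACGT was in 13 weak windows (0.319%, 0.170 to 0.545), 0.192% of IDR windows and 0.344% of unbound promoters. Neither passed in either comparison (odds ratios of 1.02 and 1.67 against IDR summits, exact test, adjusted p of 1 and 0.494). Also without a pass in either comparison were CAGGTAG (the Zelda site), CACGTG (the E-box of Myc), a run of A (AAAAAAAA), CCGGAA (the Ets core) and TTCGCG (part of the E2F site). Over the windows centred on the first TSS of all 13945 coding genes, the shares were 5.27% for the DRE, 25.2% for the BEAF core, 5.39% for Motif 1, 9.34% for the E-box, 3.94% for Motif 7, 17.0% for the TATA box, 15.5% for the initiator, 1.16% for GAGA, 1.48% for the CA repeat, 2.15% for the HINFP core and 0.394% for the longer HINFP site. They were 0.437% for Zelda, 2.00% for the Myc E-box, 4.10% for the A run, 2.92% for Ets and 5.02% for the E2F letters.

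**Figure D4:**
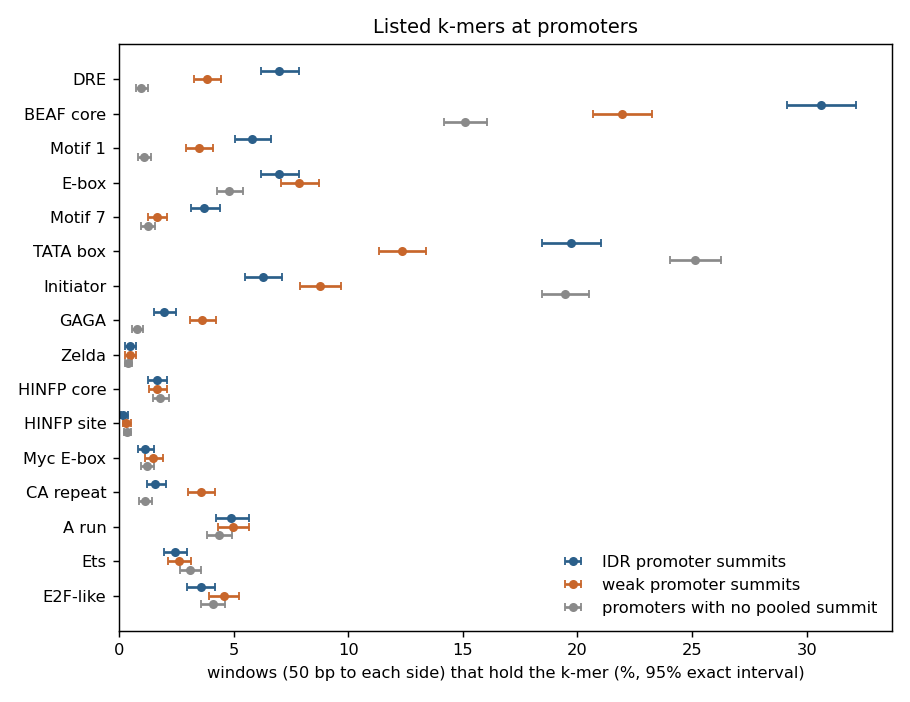
Share of windows, 50 bp to each side, that hold each listed k-mer (x axis, percent, with 95% exact intervals) at IDR promoter summits (blue), weak promoter summits (orange) and coding promoters with no pooled summit (grey, centred on the TSS). Weak summits lie between the other two sets for the DRE, BEAF core and Motif 1, above both for GAGA and the CA repeat, and with overlapping intervals for the HINFP letters.

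Words picked without the weak peaks were also looked up in them, as a description. Of 32896 8-mers, read on both strands as 1 word, 824 were more frequent at IDR promoter summits than at unbound promoters, and the 6 of highest odds ratio were CAGGGATG, CGCACCCC, AACCCTGC, AGGGATGC, GGGTGCGA and ACCAGGGC. They were picked for being rare at the unbound promoters, so no test of weak windows against those is given. CAGGGATG was in 14 weak windows (0.344%), 34 IDR windows (0.931%) and 0.523% of all coding promoters. GGGTGCGA was in 10 weak windows (0.246%), 11 IDR windows (0.301%) and 0.0932% of all coding promoters. The other 4 were in 3 to 13 weak windows, and all coding promoters held CGCACCCC at 0.043%, AACCCTGC at 0.28%, AGGGATGC at 0.308% and ACCAGGGC at 0.624%.

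Counted by gene, 3644 of 13945 coding genes had a weak summit within 250 bp of a TSS. Of these, 1239 also had an IDR summit at the same or another of their TSSs, and 2405 had weak summits only, 17.2% of all coding genes and 35.3% of the 6821 (48.9%) with any pooled summit. An IDR summit was at 4416 genes (31.7%), and 7124 genes (51.1%) had neither. For 109 of the 2405 weak-only genes (4.53%) every weak peak overlapped an IDR peak that did not itself reach a TSS of the gene. The median gene length was 2945 bp for weak-only genes, 2959.5 bp for IDR genes and 1638 bp for genes with neither. On the X lay 24.9% of weak-only genes, 14.3% of IDR genes and 13.6% of genes with neither. At 691 genes there were 2 or more weak summits. The most, 7, were at sd, which has 7 annotated TSSs.

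Weak-only genes were found in most functional groups, beside more numerous genes with IDR summits in the housekeeping groups. Over all coding genes 17.2% were weak-only and 31.7% had an IDR summit. Of 73 mitochondrial ribosomal protein genes 16 (21.9%, interval 13.1 to 33.1) were weak-only and 49 (67.1%) had an IDR summit. The best-ranked weak ones were mRpL3 (X, 15760896 to 15761325, pooled rank 8190), with rank 9991 in replicate 2 and 7806 in replicate 4, and mRpL12 and mRpL14. Of 93 cytosolic ribosomal protein genes only 8 (8.60%, interval 3.79 to 16.2) were weak-only, and 79 (84.9%) had an IDR summit. The 8 were led by RpL40 (rank 8585) and by RpS28a, whose peak lay nearer to Axn, the Wnt pathway scaffold gene. RpS6 (rank 10334) came next, with a peak in replicate 2 and none in replicate 4. Complex I, the first enzyme of the respiratory chain, had 13 weak-only genes of 40 (32.5%, interval 18.6 to 49.1) and 17 (42.5%) with an IDR summit. Its weak-only genes were led by ND-ACP (rank 8004), ND-13A and ND-B14.5B.

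All 21 nuclear pore genes had a summit, against 48.9% of all coding genes. Of them 9 (42.9%, interval 21.8 to 66.0) were weak only, against 17.2% of all coding genes. Among coding genes with any summit the weak-only share was 35.3%, which that interval holds. Nup62, a central channel protein, led them (pooled rank 8049, with ranks 11066 and 6940 in replicates 2 and 4), before Nup214, whose peak lay nearer to ReepA, and Nup35. TAF and Mediator genes, whose products link activators to RNA polymerase II, had 11 weak-only members of 40 (27.5%, interval 14.6 to 43.9), led by MED24, MED11 and MED20. The aminoacyl-tRNA synthetases had 5 of 32 (15.6%), led by ValRS, beside an IDR peak, CysRS and AlaRS-m. The proteasome list had 5 of 48 (10.4%), led by Rpt6, Rpt3 and the testis paralog Prosbeta2R2. The chaperonin had 1 of 8 (12.5%, CCT4) and the heat shock proteins 1 of 25 (4%, Hsp23). The Rab GTPases had 6 of 31 (19.4%), led by Rab39, beside an IDR peak, Rab18 and Rab27. From the synthetases on, the exact interval of each list holds the 17.2% of all coding genes.

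All 22 cell cycle genes also had a summit, and 6 of them (27.3%, interval 10.7 to 50.2) were weak only. That interval holds the 17.2% of all coding genes and the 35.3% of those with any summit. CycD, the cyclin D gene (X, 15909623 to 15910052, pooled rank 8013), lay beside an IDR peak. Rbf, the retinoblastoma relative, had ranks 12196 and 9028 in replicates 2 and 4, and dap, the relative of p21 and p27, ranks 9024 and 7268. Of 31 homeotic and segmentation genes 10 (32.3%, interval 16.7 to 51.4) were weak-only and 17 (54.8%) had an IDR summit. The pair-rule gene run (X, 20694105 to 20694534, pooled rank 9050) had signals of 61.5 and 61.3 in replicates 2 and 4. The Hox gene abd-A had signals of 82.9 and 37.0, and the segment polarity gene en 46.0 and 65.4. None of these 3 overlapped an IDR peak.

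Among the lists with at least 10 genes reached by any summit, 3 had more weak-only than IDR genes, although most of their genes had neither. They were singled out after the values were seen. Of 35 glutathione S-transferase genes, whose enzymes conjugate toxic compounds, 13 (37.1%, interval 21.5 to 55.1) were weak-only and 2 had an IDR summit. GstD1 (3R, 12369187 to 12369616, pooled rank 9376) had ranks 9946 and 7557 in replicates 2 and 4, GstO2 9859 and 10674, and GstS1 9563 and 12184. Of 21 muscle genes 7 (33.3%, 14.6 to 57.0) were weak-only and 3 had an IDR summit. Act57B, an actin gene, had signals of 53.4 and 47.2 in replicates 2 and 4, Msp300, a nesprin, 31.6 and 43.1, and Tm2, a tropomyosin, 62.8 and 43.7. Of 85 cytochrome P450 genes 9 (10.6%) were weak-only, led by Cyp6a16, Cyp305a1 and Cyp311a1, and 4 had an IDR summit. The weak-only share of all coding genes was 17.2%, inside the intervals for muscle and P450 (4.96 to 19.2) and below that for the transferases.

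Lists of sensory, cuticle and eggshell genes had few summits, against the 48.9% of all coding genes with any. Weak-only members numbered 2 of 119 odorant and gustatory receptors (Gr93a and Gr77a), 2 of 51 odorant-binding proteins (Obp99a and Obp56i), 2 of 119 cuticle proteins (Cpr65Ea and Cpr51A) and 2 of 23 neuronal genes (scrt, a zinc finger gene, beside an IDR peak, and fne, an RNA-binding protein gene). An IDR summit was at 1 further odorant-binding gene and 2 further neuronal genes, and at no receptor or cuticle gene. Gr77a overlapped no peak of either replicate, and Gr93a, Obp56i and fne only one of replicate 2. None of 25 Osiris, 27 trypsin and Jonah, and 14 chorion and vitelline membrane genes had a weak or an IDR summit. The tetraspanins had 4 weak-only genes of 34 (Tsp97E, Tsp42Ef and Tsp26A leading) and 11 with an IDR summit, so that 44.1% were reached, near the share of all coding genes.

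**Figure D5:**
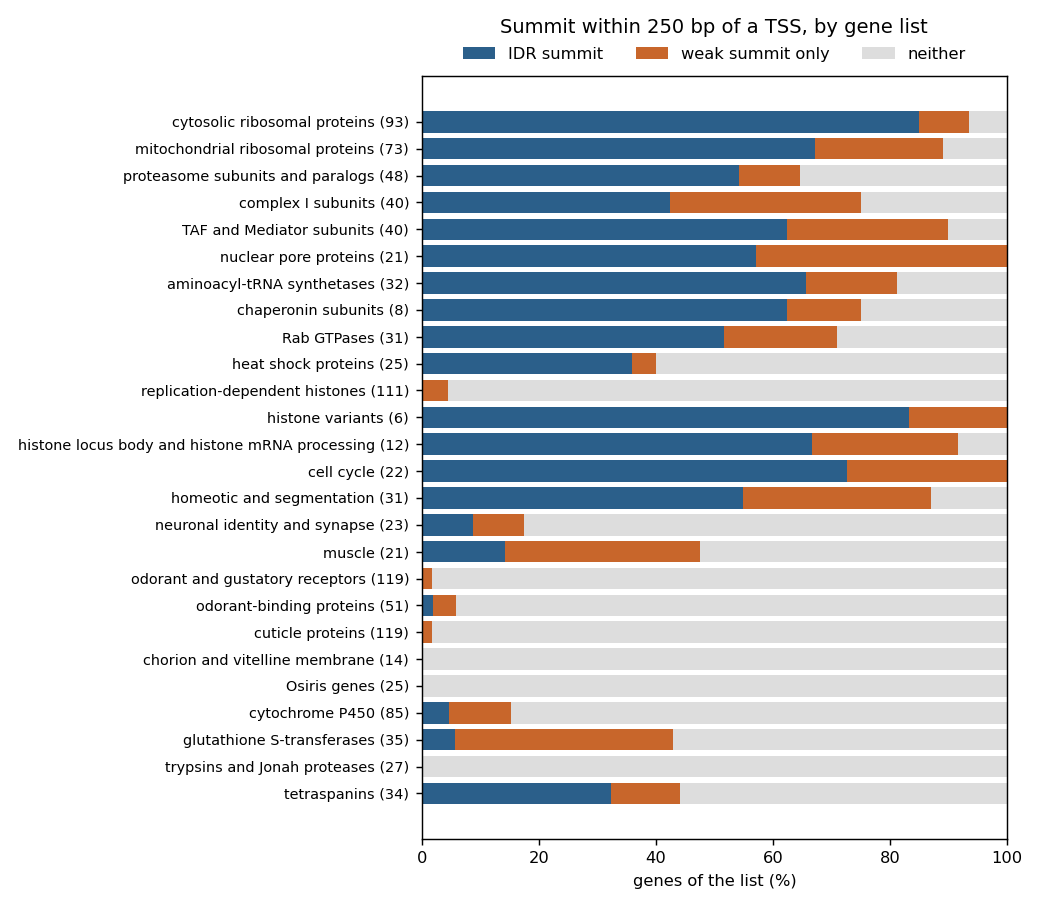
Percentage of the coding genes in each list (number in parentheses) whose TSS had an IDR summit within reach of 250 bp (blue), with weak summits only (orange) and with neither (grey). Weak-only genes form 9 of 21 nuclear pore genes and 13 of 35 glutathione S-transferase genes, and none of the Osiris genes. Over all coding genes the weak-only share was 17.2%, and over those with any summit 35.3%.

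The replication-dependent histone genes, which include the known H4 targets of the human relative, had few peaks, of a level that cannot be assigned. They stand in a tandem array of near-identical units on arm 2L. There were 4 weak promoter peaks in it and no IDR promoter peak. They reached 5 of 111 genes (4.50%), where 48.9% of all coding genes had any summit. They lay at His3:CG31613 with His4:CG31611 (pooled rank 13067), His1:CG33801 (13334), His3:CG33866 (16635) and His1:CG33804 (17136). The first had ranks 12084 and 7694 in replicates 2 and 4 and signals of 50.3 and 67.9. In the windows of these 4 peaks 0% to 47.1% of the 32-base words occur once in the genome. How reads that match several copies were treated is not stated in the labels, so neither the copy nor the level can be assigned.

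In the list of histone locus body and histone mRNA processing genes, 8 of 12 had an IDR summit and 3 were weak-only (25%, interval 5.49 to 57.2). Over all coding genes 17.2% were weak-only. The weak-only genes were Lsm10, a component of the U7 particle, whose peak lay nearer to RpS15Ab (pooled rank 16714), abo, a repressor of histone genes (18255), and Spt6, an elongation factor gene (22705), beside an IDR peak. Of 6 histone variant genes 5 had an IDR summit, and BigH1, the embryonic linker histone gene, was reached by a weak peak centred on its neighbour Rad17 (14088, with ranks 14081 and 14551 in replicates 2 and 4). Hinfp itself had an IDR summit and no weak one.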

How the data were processed

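ChIP-seq of 2 biological replicates (numbers 2 and 4) was analysed from the peak lists the authors deposited. Per the deposited provenance notes, each replicate list and the pooled list were derived from dm6 alignments and 1 control alignment. For the IDR list the notes name the remaining 3 lists as its sources. The sources used here name no aligner or peak caller and give no read depth. The deposited signal values have no stated scale, the deposited −log10 q values entered no test, and the other deposited columns are positions, printed counting from 1.

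Summits were placed on the Ensembl 115 annotation of BDGP6.54 and the RefSeq sequence of the same assembly, with which all peak ends were compatible. Overlap needed 1 bp, and of several overlapping peaks the best-ranked was used. Words were searched on both strands, 50 bp to each side of a summit. Tests were Fisher's exact tests, two-sided (one-sided for the 8-mer search), with Benjamini-Hochberg adjustment within each family (16 k-mers, 32896 8-mers, 3 location features) at a threshold of 0.05. The 95% intervals are exact (Clopper-Pearson) and cover counting error over peaks only. Scripts used Python 3.11.15, numpy 2.4.6, pandas 2.3.3 and scipy 1.17.1 and were tested on simulated data.

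The weak peaks, the 16 k-mers and the 26 gene lists were chosen with earlier results of these data known. Lists given by symbol prefixes include paralogs. Named genes are those nearest to the 10 best-ranked peaks with no IDR overlap and both replicates, the 5 best-ranked beside an IDR peak, the 5 of lowest signal, the 5 most unequal between replicates in each direction, those at each threshold, the 3 best-ranked weak-only genes of each list, Hinfp and the histone genes. A few of these are left unnamed, and sd was also named for its count after the values were seen.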

Additional observations from a re-analysis of the deposited data

How the results depend on the processing

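Of the results that answer a comparison, 55 recomputed values kept their direction and call or stayed close, and 18 moved. The 4072 weak promoter peaks became 2349 at 100 bp from a TSS and 2088 over the first 15000 pooled peaks, and the weak-only genes 1526 over those. The share overlapping both replicates (85.0%) was 75.2% with an overlap of at least 0.5 of the shorter peak, 51.0% with replicate summits within 100 bp, 96.4% over the first 15000 and 82.5% at 500 bp from a TSS. After seeing the data it was also taken over peaks with no IDR overlap (80.2%, and 52.6% with summits within 100 bp). The share overlapping an IDR peak was 20.0% at 100 bp from a TSS, and 0% of summits lay within 100 bp of an IDR summit. Against IDR summits, 5 k-mers passed as higher with 100 bp to each side, and 5 as higher and 3 as lower over the first 15000. Against unbound promoters, 10 passed as higher with 100 bp to each side and 10 with TSS-centred windows, and 1 as lower with 25 bp. The TATA box reversed to odds ratios of 1.16 (TSS-centred, against IDR summits) and 1.01 (25 bp, against unbound promoters). Single k-mers that lost their pass were Motif 7 (adjusted p = 0.108) and GAGA (0.0658) against IDR summits with 25 bp, and the DRE and Motif 1 over the first 15000, all by Fisher's exact test. The causes were not tested.

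With 1 replicate's list in place of the pooled one, split at the same rank, the weak promoter peaks numbered 4006 to 4044 and the weak-only genes 2407 to 2523, of which 1798 to 1878 were shared with the pooled result. Against IDR summits 4 to 6 k-mers then passed as higher and 5 as lower, and against unbound promoters 7 and 2. The odds ratios were 0.282 to 0.316 for upstream summits, 0.263 to 0.265 for summits near TSSs of several genes and 1.53 to 1.57 for the X. Restricted to summits with TSSs of 1 gene, an added choice, they were 0.27 for upstream and 1.52 for the X. Depth is unknown, so the precision of single peaks stays undefined, and 2 replicates of 1 line give no spread beyond these values.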
